A study of Mus musculus with 4 samples.

Results

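Blood and lymphatic endothelium genes were followed in mouse colon through 10 genes, 8 of blood vessel endothelium (Pecam1, Cdh5, Kdr, Tek, Emcn, Vwf, Cldn5 and Plvap) and 2 of lymphatic endothelium (Lyve1 and Prox1). They were taken by their gene symbol from the authors' deposited comparison table, where each of the 10 had 1 probe set, out of 32202 probe sets with a symbol. Total RNA from colon of Balb/c mice had been hybridised to GeneChip Mouse Gene 2.0 ST arrays, which give 1 log2 intensity for each probe set (transcript cluster). The 2 maltodextrin arrays, numbered 3 and 4, came from mice that had 5% maltodextrin, a glucose polymer that is made from starch and added to foods, in their drinking water for 45 days. The 2 control arrays, numbered 1 and 2, came from mice on drinking water alone for the same 45 days. The labels give no genotype, sex or age, and they do not say that samples 1 to 4 are 4 different mice, so the spread that the p-values rest on may be that of repeat handling rather than of animals.

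The arrays carried an epithelial signal: Epcam, the epithelial adhesion molecule, was between 11.67 and 11.75 on all 4. A list of 8 epithelial genes had a median difference of -0.21, with 7 below 0 and the lowest at -0.56. Control 2 stood apart by its pancreatic transcripts, with a median over 9 acinar genes of 5.06 and 4.82 log2 units on maltodextrin 3 and 4, against 4.80 on control 1 and 9.29 on control 2. Adipocyte genes were uneven too, with a median over 6 genes of 6.28 and 5.17 on maltodextrin 3 and 4, against 6.25 on control 1 and 7.56 on control 2.

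Blood endothelium lines every vessel of the gut wall and controls what leaves the blood, while lymphatic endothelium forms the vessels that drain fluid, immune cells and absorbed fat. Cells of both kinds are held together by VE-cadherin and claudins. They depend on the VEGF family and the angiopoietins, secreted ligands read by receptor kinases on the endothelial surface, and lymphatic identity is set by the transcription factor PROX1. The colon wall also holds macrophages and enteroendocrine cells, and Lyve1 is also known from tissue macrophages and Prox1 from enteroendocrine cells.

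Both lymphatic genes and 1 of the 8 blood genes, Emcn, were higher on the maltodextrin arrays at a nominal criterion, meaning 1.5-fold or more and an unadjusted limma p under 0.05. The other 7 blood genes did not meet it. Of all 32202 named probe sets 12.1% met the criterion, 8.51% as higher and 3.56% as lower, beside 3 of these 10 genes as higher and 0 as lower. In a fit of only the 17845 with a mean log2 of at least 5, where all 10 genes fall, the share was larger. There 17.1% met the criterion, 2490 as higher and 564 as lower. At an unadjusted p under 0.05 with no fold limit, 4.63% of all 32202 were lower, beside 0 of the 10. None of the 10 passed an adjusted p of 0.05, and neither did any of the 32202 (limma with Benjamini-Hochberg adjustment, smallest adjusted p 0.191, 4698 at an unadjusted p under 0.05). These totals depended on the control arrays: 905 of the 32202 passed an adjusted p of 0.05 without control 1 and 671 without control 2, and without control 2 the nominal calls were 2991 higher and 3903 lower. The count of 3 was 1 (Prox1) without maltodextrin 3 or without maltodextrin 4, where the lone maltodextrin array is assumed to vary like the control pair.

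The stretch before the transcription start is where endothelial transcription factors of the ETS family, whose core motif is GGAA, are known to act on many vessel genes. RefSeq promoters (GRCm38.p6) could be matched for 5 of the 10 genes. The 250 bases before the start are shown for Prox1 and Emcn, which were both higher on the maltodextrin arrays, and for Cldn5, whose groups overlapped, with each GGAA and its reverse complement TTCC in capitals.
Prox1, chr1:190170828-190171077, minus strand: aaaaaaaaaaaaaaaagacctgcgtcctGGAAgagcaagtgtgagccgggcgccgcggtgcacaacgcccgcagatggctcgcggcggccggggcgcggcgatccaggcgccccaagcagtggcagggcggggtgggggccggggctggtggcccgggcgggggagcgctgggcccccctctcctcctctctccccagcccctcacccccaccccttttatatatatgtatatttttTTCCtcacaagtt
Emcn, chr3:137340828-137341077, plus strand: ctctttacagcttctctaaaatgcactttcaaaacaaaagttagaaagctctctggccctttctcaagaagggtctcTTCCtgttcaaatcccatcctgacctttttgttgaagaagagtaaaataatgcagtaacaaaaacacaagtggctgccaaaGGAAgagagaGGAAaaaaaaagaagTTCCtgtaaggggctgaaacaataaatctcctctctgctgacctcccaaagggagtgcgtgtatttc
Cldn5, chr16:18776597-18776846, plus strand: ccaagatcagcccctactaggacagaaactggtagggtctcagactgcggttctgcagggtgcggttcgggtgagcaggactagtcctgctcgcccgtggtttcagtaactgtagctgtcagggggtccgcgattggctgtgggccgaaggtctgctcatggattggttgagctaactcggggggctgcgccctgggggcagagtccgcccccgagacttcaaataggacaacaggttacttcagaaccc
The core was present 2 times before this start of Prox1, 5 times before a second listed start of that gene, 4 times for Emcn, 4 for Kdr, 2 for Tek and 0 for Cldn5, counting both strands and overlaps. At least 1 match stood in 93.4% of 32851 promoter stretches of this length, and 33.4% held 4 or more, so the letters are common. A SOX motif, AACAAT or its reverse ATTGTT, was found 1 time for Emcn and 1 time for Tek and in 9.42% of all stretches, and a GATA motif, AGATAA or TTATCT, in none of the 5 genes and 9.99% of all stretches. A match is a description of the letters, not a site.

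Prox1, the homeobox transcription factor that sets lymphatic endothelial identity, had 6.47 and 6.41 log2 units on maltodextrin 3 and 4, against 5.40 and 5.50 on control 1 and 2. Both maltodextrin arrays lay above both control arrays, with a gap of 0.90 between the nearest arrays of the groups, far larger than the distance between arrays of a group. The means were 6.44 ± 0.05 in maltodextrin and 5.45 ± 0.07 in control (SD, n = 2 each), a difference of 0.99 (SE 0.17, 95% interval 0.53 to 1.44), which is 1.98-fold (limma adjusted p = 0.233, unadjusted p = 0.00288). With any 1 array left out the difference stayed between 0.94 and 1.04. The control values lay close to a guide to background, the 95th percentile of the means of 1089 olfactory receptor probe sets, at 5.20. The gene (transcript cluster 17230960) is protein-coding and lies on chromosome 1 from 190118035 to 190170827 in GRCm38.p6.

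Lyve1, the hyaluronan receptor of lymphatic capillaries, had 9.02 and 9.22 log2 units on maltodextrin 3 and 4, against 8.53 and 8.42 on control 1 and 2. Again the groups did not overlap, and the gap between them, 0.50, was wider than either pair of replicates. It averaged 9.12 ± 0.14 in maltodextrin and 8.47 ± 0.07 in control (SD, n = 2 each), higher by 0.65 (SE 0.18, 95% interval 0.16 to 1.13) or 1.56-fold (limma adjusted p = 0.287, unadjusted p = 0.0189). The size is near the 1.5-fold limit: it was 0.46 after quantile normalization was applied again and 0.55 without maltodextrin 4, both below it, and without maltodextrin 3 it was 0.75 with an unadjusted limma p of 0.0713. Lyve1 (17495097) lies on chromosome 7 from 110850607 to 110862953. In the authors' deposited list of 1677 probe sets, Prox1 and Lyve1 were the only ones of the 10 genes, with folds of 1.98 and 1.56 and p-values of 0.00354 and 0.0287 in the authors' deposited table.

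**Figure D1:**
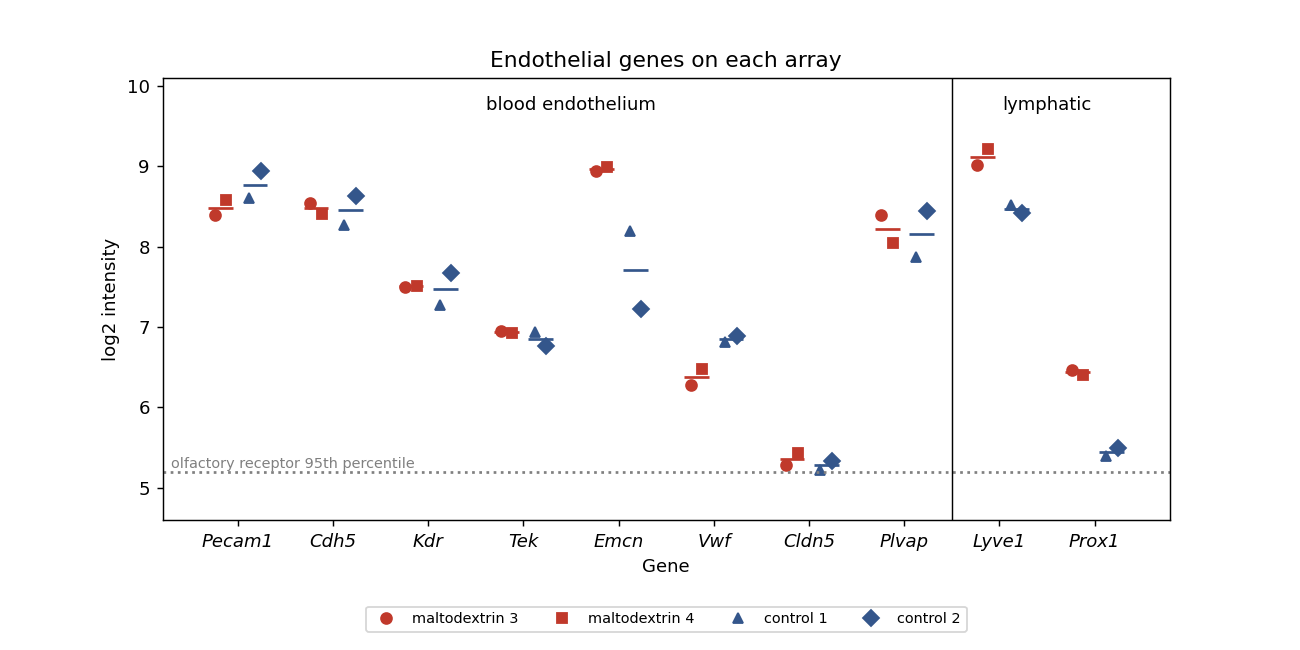
Log2 intensity (y axis) of each of the 10 genes (x axis) on each array, with maltodextrin arrays in red left of control arrays in blue, a bar at each group mean, and a dotted line at the 95th percentile of olfactory receptor probe sets (5.20). The groups are clear of each other for Emcn, Vwf, Lyve1 and Prox1, Pecam1 is apart by 0.02 only, and the 2 control points of Emcn are 0.96 apart.

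Emcn, which encodes endomucin, a sialomucin on the surface of capillary and venous endothelium, had 8.95 and 8.99 log2 units on maltodextrin 3 and 4, against 8.19 and 7.23 on control 1 and 2. The maltodextrin arrays were close together, and the controls were not: control 2 was 0.96 below control 1. Emcn averaged 8.97 ± 0.03 in maltodextrin and 7.71 ± 0.68 in control (SD, n = 2 each), higher by 1.26 (SE 0.36, 95% interval 0.32 to 2.21), or 2.40-fold (limma adjusted p = 0.288, unadjusted p = 0.0194). Its size depended on the control array: it was 0.78 without control 2 and 1.74 without control 1. Without maltodextrin 3 or maltodextrin 4 it was 1.28 or 1.24 and no longer met the criterion, with unadjusted limma p of 0.0721 and 0.0796. It had the largest difference of the 10 genes, and 3.93% of all named probe sets had a larger one in either direction, beside 6.96% for Prox1 and 17.0% for Lyve1. The methods' t-test, which takes the spread from this probe set alone, gave an unadjusted p of 0.120 for Emcn, the same as the authors' deposited table. Emcn (17402981) lies on chromosome 3 from 137341062 to 137431069.

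Cdh5, Pecam1 and Cldn5, the junction genes among the 8, did not meet the nominal criterion. Cdh5, which encodes VE-cadherin, the adhesion molecule of endothelial adherens junctions, had 8.55 and 8.41 log2 units on maltodextrin 3 and 4, against 8.27 and 8.63 on control 1 and 2. Both maltodextrin values fell between the control values. The difference was 0.03 (SE 0.21), with a 95% interval of -0.53 to 0.58 by limma. Pecam1, or CD31, an adhesion molecule of endothelial junctions that platelets and leukocytes also carry, had 8.39 and 8.58 on maltodextrin 3 and 4, against 8.60 and 8.94 on control 1 and 2. The maltodextrin arrays were lower by 0.02 at the nearest pair, and the difference was -0.28 (SE 0.21, 95% interval -0.84 to 0.27, limma adjusted p = 0.554). Cldn5, the claudin of endothelial tight junctions, had 5.28 and 5.43 on maltodextrin 3 and 4, against 5.22 and 5.34 on control 1 and 2, all close to the receptor guide of 5.20. Its difference was 0.08 (SE 0.18), and its low level limits what can be measured.

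The receptor genes were also close in level between the groups. Kdr, the main VEGF receptor of endothelium (VEGFR2), had 7.50 and 7.52 log2 units on maltodextrin 3 and 4, against 7.27 and 7.68 on control 1 and 2. The controls enclosed the maltodextrin arrays. Its difference was 0.03 (SE 0.21, 95% interval -0.53 to 0.60, limma adjusted p = 0.958). Tek, the angiopoietin receptor TIE2, had 6.95 and 6.93 on maltodextrin 3 and 4, against 6.94 and 6.77 on control 1 and 2, with a difference of 0.09 (SE 0.18, 95% interval -0.38 to 0.55, limma adjusted p = 0.839).

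Plvap, which forms the diaphragms of fenestrated capillaries, had 8.39 and 8.05 log2 units on maltodextrin 3 and 4, against 7.88 and 8.44 on control 1 and 2. The spread within each group was larger than the difference of 0.06 (SE 0.27, 95% interval -0.66 to 0.79). Vwf, the clotting glycoprotein that endothelium stores and platelets also carry, differed in the other direction, with 6.28 and 6.47 on maltodextrin 3 and 4 against 6.81 and 6.88 on control 1 and 2. The groups did not overlap, as in 24.7% of all named probe sets in this direction, and the gap between them was 0.34. Vwf was 6.38 ± 0.14 in maltodextrin and 6.85 ± 0.05 in control (SD, n = 2 each), a difference of -0.47 (SE 0.18, 95% interval -0.95 to 0.00), or 1.39-fold lower, short of the 1.5-fold limit (limma adjusted p = 0.344, unadjusted p = 0.0515). By the authors' deposited table its p was 0.0452 and its signed fold -1.39.

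**Figure D2:**
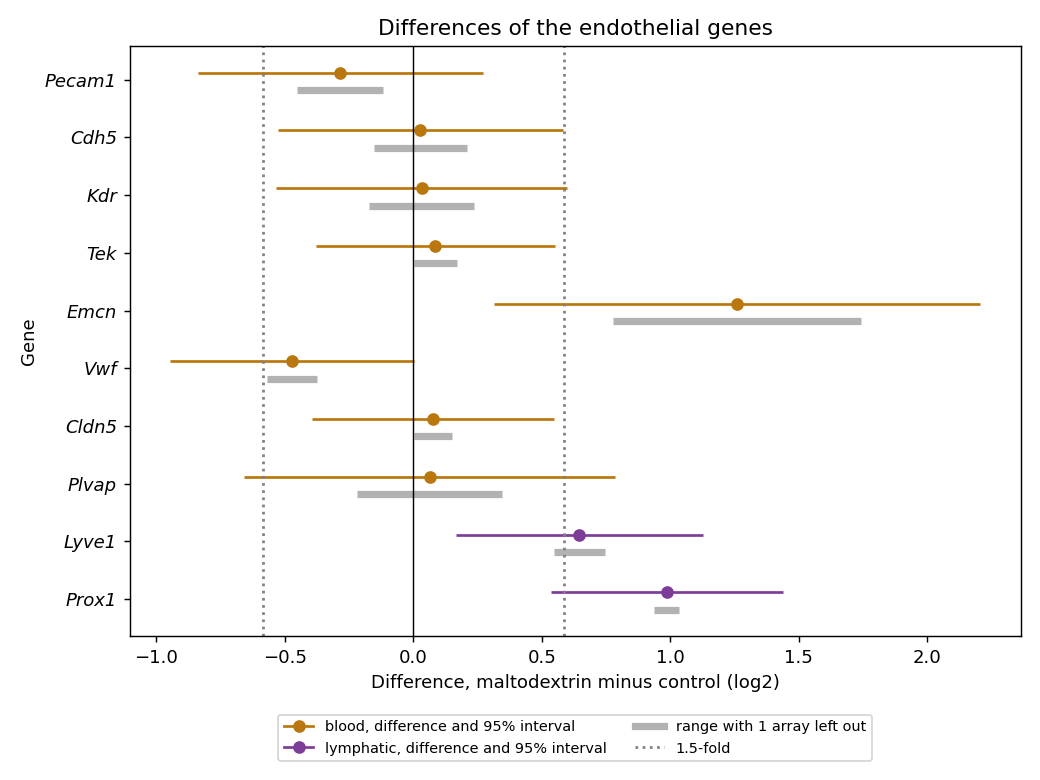
Difference in log2 intensity, maltodextrin minus control (x axis), for each gene (y axis), as a point with the 95% interval from limma (blood genes in ochre, lymphatic genes in purple) and a grey bar for the range with 1 array left out. Dotted lines mark 1.5-fold. The intervals of Emcn, Lyve1 and Prox1 lie above 0, and the grey bar of Emcn runs from 0.78 to 1.74.

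Set side by side, the 8 blood genes had a median difference of 0.05 and the 2 lymphatic genes one of 0.82, beside a median of -0.04 over all named probe sets and 0.14 over those with a mean log2 of at least 5, where all 10 genes fall. Cdh5, Kdr, Plvap, Cldn5 and Tek lay within 0.09 of 0. Cdh5, Kdr, Plvap and Tek took the opposite sign (-0.16, -0.15, -0.12 and -0.052) after quantile normalization was applied again, so no direction is given for them. The mean of the lymphatic pair minus the mean of the 8 blood genes was 0.21 and 0.26 on maltodextrin 3 and 4, against -0.43 and -0.53 on control 1 and 2. That shift is a description, since it rests on 2 genes. Groups did not overlap for 5 of the 10 genes, 3 higher (Emcn, Lyve1, Prox1) and 2 lower (Vwf, Pecam1), against 50.4% of all named probe sets, so separation of 2 arrays from 2 is common in these data. In whole-tissue RNA, fewer cells of a type and less RNA per cell cannot be told apart.

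A wider list of blood vessel endothelium genes also held both genes that met the criterion and many that did not. Of 32 measured genes, 6 (18.8%) met the nominal criterion as higher and 0 as lower, 26 did not meet it and 0 passed an adjusted p of 0.05. The median difference was 0.21. Of all named probe sets 8.51% were higher and 3.56% lower. In the fit of the 17845 with a mean log2 of at least 5, 2490 were higher and 564 lower. The 6 were Cd93, a receptor of endothelium and myeloid cells, at 1.03 (SE 0.17), Adgrl4, an adhesion receptor of vessels, at 0.78 (SE 0.20), Esam, a junction adhesion molecule, at 0.70 (SE 0.24), She, from a level under the receptor guide, at 0.69 (SE 0.23), Eng, the TGF-beta co-receptor endoglin, at 0.69 (SE 0.25), and Tm4sf1 at 0.65 (SE 0.20). Cd93 had 7.79 and 7.94 log2 units on maltodextrin 3 and 4, against 6.82 and 6.85 on control 1 and 2, which is a tighter separation than that of Emcn. Cd34, another surface sialomucin, had 9.75 and 10.14 on maltodextrin 3 and 4, against 9.44 and 8.42 on control 1 and 2. Its difference of 1.02 (SE 0.39) was short of the criterion, and control 2 was the lowest array, as for Emcn. Aqp1, a water channel of vessels and other cells, differed by 0.84 (SE 0.38), also short of it. The lowest of the list were Icam2, an adhesion molecule for leukocytes, at -0.59 (SE 0.25) and S1pr1, a sphingosine phosphate receptor, at -0.52 (SE 0.19). The count of 6 was 4, with 1 lower, after quantile normalization was applied again, 1 without maltodextrin 3 and 2 without maltodextrin 4. Without control 1 there were 8 higher and 3 lower, and with 1 array left out the median ran from 0.13 to 0.40.

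No other listed gene of lymphatic endothelium met the nominal criterion with all 4 arrays. Of 10 listed genes 9 had a named probe set, and 0 were called in either direction, with a median difference of 0.15. The median was 0.02 without maltodextrin 4, and without control 1 there was 1 call higher and 1 lower. Flt4, the VEGF receptor of lymphatic vessels (VEGFR3), had 7.06 and 7.03 log2 units on maltodextrin 3 and 4, against 6.87 and 6.91 on control 1 and 2, a difference of 0.15 (SE 0.17). Pdpn, the surface glycoprotein podoplanin, differed by 0.29 (SE 0.18), Mmrn1, a secreted multimerin of lymphatic endothelium and platelets, by 0.40 (SE 0.21), Reln by 0.21 (SE 0.21) and Nrp2, a co-receptor for VEGF-C, by 0.56 (SE 0.29). The differences of Foxc2, a transcription factor of lymphatic valves, at -0.36 (SE 0.32), Nr2f2, a transcription factor of veins and lymphatics, at -0.19 (SE 0.25), Itga9, an integrin of lymphatic valves, at -0.12 (SE 0.18) and Stab2, a hyaluronan scavenger receptor, at -0.01 (SE 0.25) lay below 0. Stab2 had a mean of 4.67, under the receptor guide. Ccl21a was not analysed here. Whether the differences of Lyve1 and Prox1 are larger than those of the other lymphatic genes was not tested.

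Ligands and receptors of the VEGF, angiopoietin, Notch and apelin systems included 6 genes at the nominal criterion. Of 18 genes, Kdr and Tek included, 6 were higher (33.3%, beside 8.51% of all named probe sets) and 0 lower, with a median difference of 0.17. In the fit of the 17845 probe sets with a mean log2 of at least 5, 2490 were higher. Aplnr, the apelin receptor of growing vessels, had 7.42 and 7.22 log2 units on maltodextrin 3 and 4, against 6.56 and 5.65 on control 1 and 2, higher by 1.22 (SE 0.35, or 0.76 without control 2). Its ligand Apln, from a mean level under the receptor guide, was higher by 0.67 (SE 0.20), and Dll4, the Notch ligand of endothelial tip cells, by 1.11 (SE 0.21), both without overlap between the groups. Nrp1, the co-receptor that pairs with VEGFR2, was higher by 0.93 (SE 0.19), Vegfb by 0.68 (SE 0.18) and Vegfd, a lymphatic growth factor that the file lists as Figf, by 0.70 (SE 0.19). Angpt2, an angiopoietin that endothelium releases, differed by 0.56 (SE 0.18), just short of the fold limit, from a level under the receptor guide.

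Vegfa, Vegfc, Angpt1 and Pgf did not meet the criterion. Vegfa, the ligand of VEGFR2, had 8.57 and 8.54 log2 units on maltodextrin 3 and 4, against 8.59 and 9.41 on control 1 and 2, a difference of -0.45 (SE 0.32), or -0.04 without control 2. Vegfc, the main ligand of VEGFR3, differed by -0.38 (SE 0.21), Angpt1 by 0.19 (SE 0.18) and Pgf by 0.06 (SE 0.18), the last 2 from levels under the receptor guide. The receptors Flt1, Tie1 and Notch4 differed by 0.22 (SE 0.27), 0.14 (SE 0.21) and -0.04 (SE 0.27). Esm1, a secreted proteoglycan of endothelium, differed by 0.10 (SE 0.27), from a level under the receptor guide. Without maltodextrin 3 the count of 6 was 1, and without maltodextrin 4 it was 2. Without control 1 there was also 1 lower, and without control 2 the median was 0.30.

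**Figure D3:**
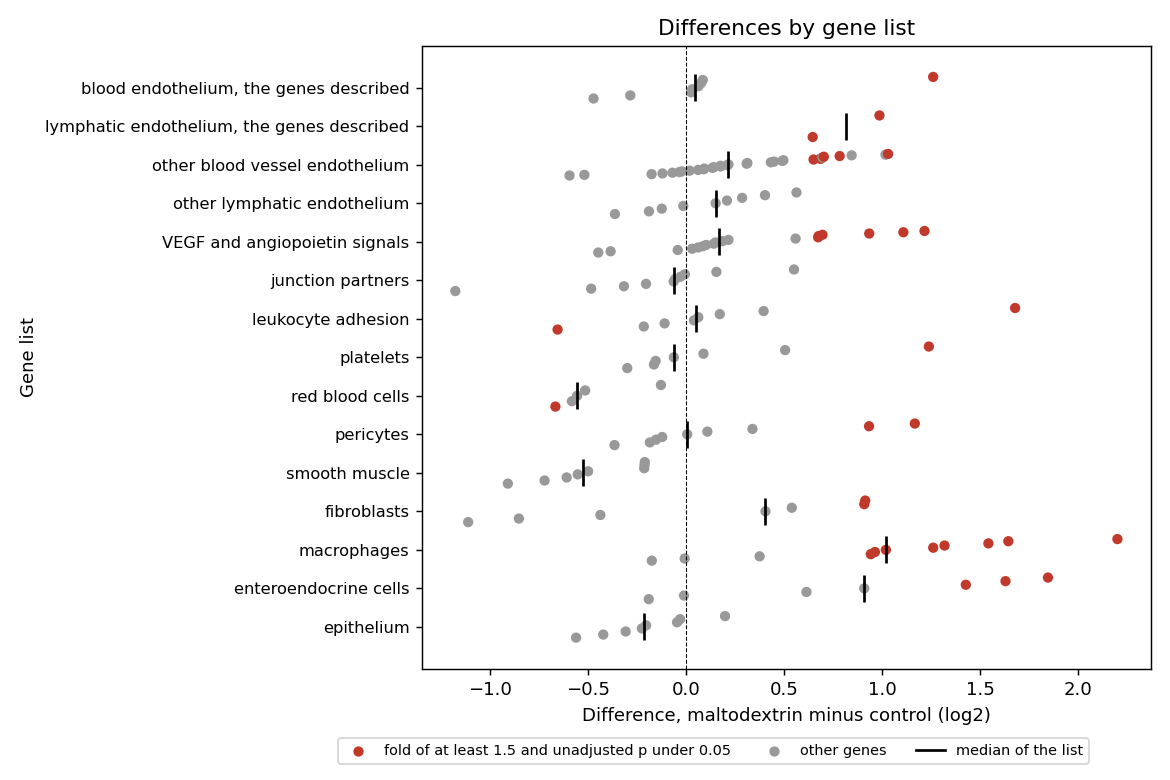
Difference in log2 intensity, maltodextrin minus control (x axis), of each gene of 15 lists (y axis), in red where the nominal criterion was met, with a black bar at each list's median. Among these 15 the medians run from -0.55 for red blood cells to 1.02 for macrophages, and 0 genes of the other lymphatic list are red. The red blood cell median was -0.03 without control 1 and -0.86 without control 2. Lists of pancreatic acinar cells, adipocytes and B cells are not drawn. Their medians were lower, at -2.20 (-0.12 without control 2), -0.89 and -0.99.

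Genes of leukocyte adhesion held calls in both directions. Of 8 adhesion genes 1 was higher (12.5%) and 1 lower at the nominal criterion, beside 8.51% higher and 3.56% lower of all named probe sets. In the fit of the 17845 with a mean log2 of at least 5, 2490 were higher and 564 lower. Chst4, a sulfotransferase of venules in lymphoid tissue that mucus-secreting epithelium also makes, was higher by 1.68 (SE 0.22). Madcam1, the addressin that guides lymphocytes into the gut, was lower, at -0.65 (SE 0.23). The call of Madcam1 was lost without control 1, control 2 or maltodextrin 3, where its difference was -0.62, -0.69 and -0.42, and without maltodextrin 4 it was -0.89. B cell genes, which mark lymphoid follicles with such venules, were below 0 in 7 of 7 genes (median -0.99, 2 lower at the criterion), with a median of -0.38 and 0 called without maltodextrin 3 and -1.59 and 5 called without maltodextrin 4, and their part in the value of Madcam1 was not tested. Selp, the P-selectin of endothelium and platelets, differed by 0.40 (SE 0.24). Vcam1 and Icam1, adhesion molecules of activated endothelium, differed by 0.06 (SE 0.21) and -0.21 (SE 0.22). None of the 10 junction partners met the criterion with all 4 arrays, 8 lay below 0 and 2 above, and their median was -0.06, with 2 lower calls without control 1. The furthest was Cgn, an epithelial tight junction protein, at -1.18 (SE 0.50), or -0.46 without control 2 and -1.90 without control 1, followed by Jam2, an adhesion molecule of endothelial junctions, at 0.55 (SE 0.24) and Tjp1 at -0.48 (SE 0.25).

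Macrophage markers included genes that were higher on the maltodextrin arrays, as Lyve1 was. Of 11 genes 8 (72.7%) met the nominal criterion as higher, beside 8.51% of all named probe sets, and 0 as lower, beside 3.56%. The median difference was 1.02. Without maltodextrin 4 the count was 4, and without each of the other arrays it was 8. The list had medians of 7.97 and 8.39 log2 units on maltodextrin 3 and 4, against 6.98 and 7.27 on control 1 and 2. The summed intensity of the list, on the log2 scale, was 11.6 and 11.9 on maltodextrin 3 and 4, against 10.7 and 10.4 on control 1 and 2, and 0 of the 11 lay under the receptor guide. Adgre1 (F4/80, Emr1 in the file) was higher by 2.20 (SE 0.40), C1qb, a complement chain, by 1.64 (SE 0.38) and Folr2, a folate receptor of resident macrophages that often also express Lyve1, by 1.54 (SE 0.37). Timd4 and Cd163, markers of resident macrophages, differed by -0.17 (SE 0.31) and -0.01 (SE 0.23). The part of macrophages in the difference of Lyve1 was not tested.

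Some enteroendocrine markers were higher on the maltodextrin arrays, as Prox1 was. Of 7 genes 3 (42.9%) met the nominal criterion as higher, beside 8.51% of all named probe sets, and 0 as lower, beside 3.56%. The median difference was 0.91. The median was 0.37 without control 1 and 1.37 without control 2, where 5 were called, and without maltodextrin 4 there was also 1 lower. The list had medians of 8.65 and 8.47 log2 units on maltodextrin 3 and 4, against 7.12 and 7.63 on control 1 and 2, and summed intensities, on the log2 scale, of 11.3 and 11.4 on maltodextrin 3 and 4 against 10.3 and 10.9 on control 1 and 2. Chga, chromogranin A, was higher by 1.85 (SE 0.33), Gcg, proglucagon, by 1.63 (SE 0.27) and Tph1, the enzyme of serotonin synthesis in enterochromaffin cells, by 1.43 (SE 0.34), while Insl5 and Pyy, hormones of the distal colon, differed by -0.01 (SE 0.82) and -0.19 (SE 0.55). None of the 7 lay under the receptor guide. The part of these cells in the difference of Prox1 was not tested.

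**Figure D4:**
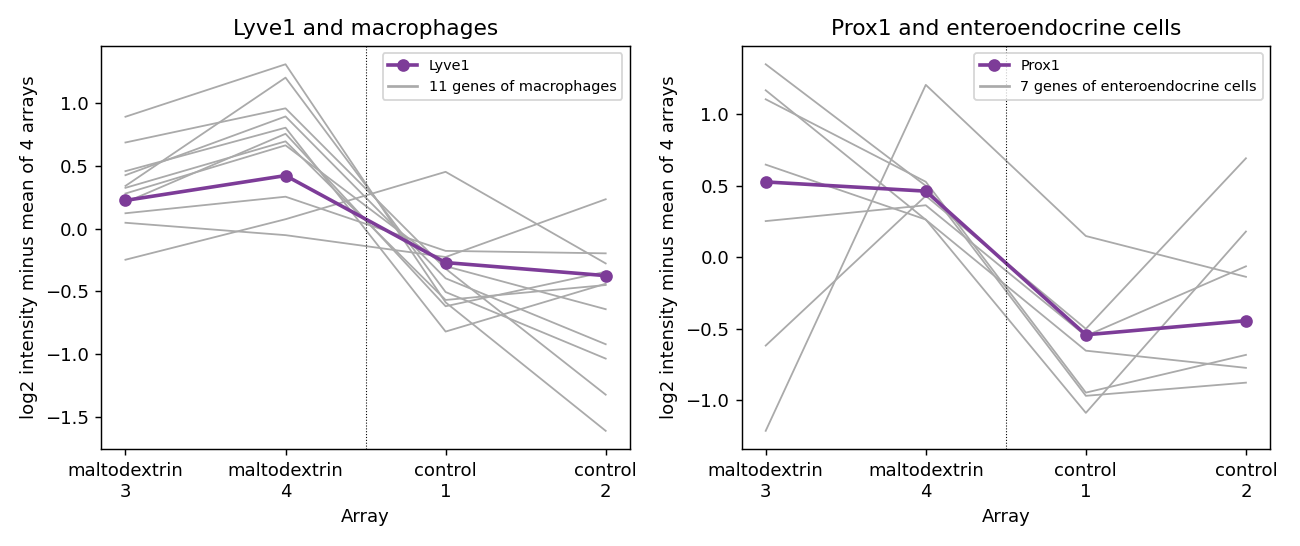
Log2 intensity minus the mean of the 4 arrays (y axis) on each array (x axis), for Lyve1 with the 11 macrophage genes (left) and Prox1 with the 7 enteroendocrine genes (right), maltodextrin arrays left of the dotted line. Lyve1 and Prox1 and most grey lines are higher left of the dotted line, and among the enteroendocrine genes Insl5 and Pyy are lowest on maltodextrin 3.

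Lists for other cells of the vessel wall and of blood held genes at the criterion too. Higher calls made up 22.2% of the pericyte, 28.6% of the fibroblast and 14.3% of the platelet genes. Of all named probe sets 8.51% were higher, and 2490 of 17845 in the fit of those with a mean log2 of at least 5. Among 9 pericyte genes 2 were higher at the criterion, Rgs5, a regulator of G protein signals, at 1.17 (SE 0.40, or 0.68 without maltodextrin 3) and Pdgfrb, the PDGF receptor of mural cells, at 0.93 (SE 0.22), while Abcc9 differed by -0.36 (SE 0.30) and the median was 0.01. The 2 pericyte calls and those of the fibroblast list were 0 without maltodextrin 3. Smooth muscle genes were below 0 in 8 of 8, with a median of -0.53 (from -0.82 without control 1 to -0.23 without maltodextrin 4) and 0 at the criterion, Myh11, smooth muscle myosin, at -0.91 (SE 0.40). Of 7 fibroblast genes, Dpt at 0.91 (SE 0.18) and Lum at 0.91 (SE 0.22) were higher at the criterion. Col3a1, a fibrillar collagen, differed by -1.11 (SE 0.74), or -0.03 without control 2. Of 7 platelet genes, which share Pecam1 and Vwf with endothelium, 1 was higher, Pf4, a platelet chemokine, at 1.24 (SE 0.17). The platelet list had a median of -0.06, with 3 genes above 0 and 4 below, and 4 lay under the receptor guide. All 5 measured red blood cell genes lay under the guide, with summed intensities of 6.42 and 6.43 on maltodextrin 3 and 4 against 7.20 and 6.59 on control 1 and 2, on the log2 scale. Their differences were below 0 in 5 of 5. Hbb-bt, at -0.67 (SE 0.23), was the 1 lower at the criterion, beside 3.56% of all named probe sets. The part of these cells in the endothelial values was not tested.

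On control 2, the array with the pancreatic transcripts, the endothelial genes Cdh5, Kdr, Pecam1 and Plvap exceeded control 1 by 0.36, 0.41, 0.33 and 0.56, while Emcn was lower by 0.96. Control 2 minus control 1 was 0.12 for Cldn5, 0.07 for Vwf, -0.17 for Tek, 0.10 for Prox1 and -0.10 for Lyve1. Over the 8 blood genes the mean was 7.40 on control 1 and 7.49 on control 2, and the median 7.57 and 7.45. Without control 2 the median difference of the 8 blood genes was 0.17 and that of the lymphatic pair 0.81. Emcn, Lyve1 and Prox1 differed by 0.78, 0.59 and 1.04 in that setting, where the lone control array is assumed to vary like the maltodextrin pair. The part of the pancreatic signal in the endothelial values was not tested.

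The genes most like these in pattern were sought among 137 listed genes with a mean log2 of at least 5, by the Euclidean distance between the 4 values of a gene, each minus the gene's mean. Nearest to the mean pattern of the 8 blood genes were Flt4 at 0.07, Egfl7, a secreted factor of endothelium, at 0.12 and Epcam at 0.16, but 924 of 17845 probe sets were as near as the third. For Lyve1 the nearest were Vegfd (Figf) at 0.10, Gp9, a platelet glycoprotein, at 0.18 and Tm4sf1, a surface protein of endothelium, at 0.20, with 397 probe sets as near as the third. Nearest to Prox1 were Nrp1 at 0.13, Cd93 at 0.16 and Dpt, a matrix protein of fibroblasts, at 0.19, with 126 as near. With 4 arrays many genes share any pattern, so these distances are a description only.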

How the data were processed

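The authors deposited log2 intensities for 41345 probe sets on 4 arrays, and a comparison table of 33793 rows that holds, per the file headers, p-values, step-up p-values, a linear ratio and a fold score whose sign is negative where maltodextrin is lower. Per the submitters' processing notes, Partek 6.6 was used. How background was corrected and probe sets were normalized and summarized was not given in the sources used here. Quantile normalization applied again therefore means applied to the deposited values, whether or not an earlier step had used it. An equal-variance test on the log2 values, called the methods' t-test, came within 0.000639 of the deposited p-values, and differences of group means within 8.68e-05 (log2) of the deposited ratio. The authors' deposited list of 1677 rows has damaged cells, so only its row identities were used.

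Groups came from the labels. The 32202 probe sets with a symbol were fitted together with limma 3.58.1 in R 4.3.3 (lmFit, eBayes, maltodextrin minus control, two-sided, Benjamini-Hochberg over all 32202), and tested on simulated data. A gene with several probe sets was taken by its brightest. With 2 arrays per group an exact permutation test cannot go below 0.333. The nominal criterion needed 1.5-fold or more and p under 0.05 before adjustment. The number of arrays limits the precision. Gene positions and promoters are those of RefSeq (GRCm38.p6), and all 10 genes matched a position. Of 175 entries in 18 lists, 171 had a named probe set. All 10 genes were to be named, all of the other lymphatic and VEGF lists, and up to 3 with the largest difference in each other list. Others are given as nearest patterns, criterion members or named after their values were seen (Cd163, Timd4, Vcam1, Icam1, Icam2, S1pr1, Insl5, Pyy, Epcam). The genes and lists were chosen with earlier results of these data known. Alternatives were a filter at a mean log2 of 5, a second quantile normalization, centring of each array on its median, a fit over every row, robust eBayes with a trend, the methods' t-test, the authors' deposited fold and p-values, a limit of 2-fold, the mean of a gene's probe sets, and each array left out.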

Additional observations from a re-analysis of the deposited data

How the results depend on the processing

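Of 130 repeats over the 10 genes and all alternatives, 112 kept the direction and the side of the nominal criterion, 9 kept only the direction and 9 reversed, all 9 in genes that did not meet it. Only quantile normalization of the deposited values, centring on medians and leaving out an array could change a gene's difference. The other alternatives kept each difference as it was, so they could not reverse a direction, and the tally overstates how far direction was tried. Quantile normalization of the deposited values gave -0.16 for Cdh5, -0.15 for Kdr, -0.052 for Tek and -0.12 for Plvap. It moved the blood median to -0.13 and the lymphatic median to 0.71, and left Lyve1 below the fold limit at 0.46. Centring arrays on their medians moved the lymphatic median to 0.88. With 1 array left out the differences ran from -0.15 to 0.21 for Cdh5, -0.17 to 0.24 for Kdr and -0.22 to 0.35 for Plvap, the blood median from -0.16 to 0.17, the lymphatic median from 0.78 to 0.85, and the count of genes at the criterion from 1 to 3. The count was 1 (Emcn) at a fold of at least 2, and 2 (Lyve1 and Prox1) by the methods' t-test and by the authors' deposited values. Prox1 met the criterion in every alternative except a fold of at least 2. Over all probe sets the nominal count of 3887 was 1394 at a fold of at least 2, 1615 by the methods' t-test, and from 1288 to 6894 with 1 array left out. Of these calls 70.5% were higher with all arrays, while lower calls were the more frequent without control 2. The 0 calls at an adjusted p of 0.05 did not stay 0 without control 1 or without control 2. In those fits the lone control array is assumed to vary like the maltodextrin pair. The causes were not tested. No paired analysis was possible because the sample numbers run through both groups without repeating. Levels near the olfactory receptor guide of 5.20 (Cldn5, Prox1 on controls) limit what can be measured there.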
